A study of Homo sapiens with 7 samples.

Results

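PPARα is a nuclear receptor that senses fatty acids and fibrate drugs and drives genes of fat breakdown in liver. It binds DNA together with the receptor RXR, typically at paired copies of a short hexamer separated by a single base, an arrangement called DR1. ERα and ERβ, the estrogen receptors, bind as pairs at a palindromic element made of similar hexamers, and they draw on many of the same cofactors. The regions described here are those where an antibody to PPARα gave a peak in all 3 groups of the series, that is, beside ERα, beside ERβ and beside neither. Joining all peaks of the 6 lists with at least 1 bp in common, on the autosomes and X, left 92292 merged regions, and 1546 of them (1.68%) held a peak from at least 1 library of each group. A narrower set of 123 regions (0.133%) held a peak from all 6 libraries. The regions were chosen by the positions of called peaks, so their number, the libraries in which they were called and the strength of their peaks are a description, without a test.

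All cells were HepG2, a human hepatocellular carcinoma line, carrying an expression vector for PPARα, and all received the PPARα agonist WY14643 (spelled in 2 ways in the labels) at 10 µM for 2 h, 48 h after transfection. The PPARα+ERα cells also carried an ERα vector and were first given PPT, an ERα-selective agonist, at 10 nM for 45 min. The PPARα+ERβ cells also carried an ERβ vector and were first given DPN, an ERβ-selective agonist, at 10 nM for 45 min, while the PPARα cells carried no estrogen receptor vector and received neither agonist. All groups thus shared the introduced PPARα and its agonist. Chromatin was cut with a nuclease and sonicated, and libraries were made with the Clontech DNA SMART kit, a single-tube method. A peak list holds no expression values, so the identity of the cells was not checked against marker genes. Each group had 2 libraries, numbered here by order of deposit and not described as separate cultures, so differences between them may be technical. The tests below use the group means or the pairing of libraries, so no p-value measures the spread between cultures. The 7th sample, without antibody, was not analysed here.

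The lists were of unequal kind before any region was chosen. They held 24505 and 27544 peaks for PPARα+ERα, 17457 and 23302 for PPARα+ERβ and 23805 and 36302 for PPARα. Depth was estimated from each list's lowest background, as the mean spacing between fragments along the genome, and it was 779.7 and 725 bp per fragment for PPARα+ERα, against 450 to 537 bp in the other 4 libraries. The PPARα+ERα libraries were therefore the shallowest. Intervals below are Wilson 95% intervals that cover counting error only. Positions are those of hg38 as the deposited files give them, and gene spans, starts and sequences are from RefSeq on GRCh38.p14.

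A feature of these regions, and of the other regions of the series, lay at their borders, and sequences come first. In 4 of the regions a border that 2 or more libraries share lies in a promoter window whose sequence was at hand. The 3 borders with a run of T are printed here, and the other, at DNAJC11, had no such run. The forward strand is given 5′ to 3′, with the run of T at the shared border in capitals. The peaks extend to the left from the end of the run.
MLXIP, chr12:122078561-122078650: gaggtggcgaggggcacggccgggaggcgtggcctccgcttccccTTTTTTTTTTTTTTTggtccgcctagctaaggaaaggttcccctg
E2F2, chr1:23531206-23531295: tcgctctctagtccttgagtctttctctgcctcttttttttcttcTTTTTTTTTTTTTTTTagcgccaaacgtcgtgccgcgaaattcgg
PAK1IP1, chr6:10694863-10694952: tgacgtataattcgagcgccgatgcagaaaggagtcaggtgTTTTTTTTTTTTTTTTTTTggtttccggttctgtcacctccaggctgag

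MLXIP encodes MondoA, a transcription factor that responds to glucose. Its region (chr12:122078184-122078621) lay 135 bp before the gene's start and had a peak in all 6 libraries. The 15-base run above ends at 122078620, which was the right border of the peak in 5 libraries, and the right border in PPARα library 2 was at 122078621. The left borders were scattered, at 122078277 and 122078299 in the PPARα+ERα libraries, 122078184 and 122078229 with PPARα+ERβ, and 122078279 and 122078200 with PPARα. All 6 summits were at the same base. The summits were stacks of 39 and 36 fragments in the PPARα+ERα libraries, 84 and 95 with PPARα+ERβ, and 49 and 84 with PPARα. The local background under the peak was 14.5 to 15.4 times the genome-wide level of its list in every library.

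E2F2 encodes a cell cycle transcription factor of the E2F family. Its region (chr1:23530913-23531265) overlapped the promoter window by 82 bp and had peaks in 4 libraries, PPARα+ERα library 1, both PPARα+ERβ libraries and PPARα library 2. All 4 peaks ended at 23531265, 1 base short of the end of a run of 16. The third sequence lies where PAK1IP1, a gene whose product restrains the kinase PAK1, and C6orf52 start in opposite directions. Their shared region (chr6:10694265-10694922) was the heaviest of the 123 by fragments, with 219 and 238 at the summit in PPARα+ERα, 284 and 318 in PPARα+ERβ, and 98 and 152 in PPARα. In the PPARα+ERα and PPARα+ERβ libraries all 4 peaks ran from 10694265 to 10694922, so that both borders were shared. The PPARα peaks were narrower, from 10694590 to 10694918 and from 10694542 to 10694919, and both ended inside the same run of T.

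Shared borders, counted here by position without reading the sequence, were frequent in the regions found in all 3 groups. Among pairs of overlapping peaks from 2 libraries, 51.8% to 80.6% had a start or an end at exactly the same base, depending on the pair of libraries, and 67.7% did so over all 11823 pairs of peaks. A further 14.3% to 23.9% missed by 1 bp, and at most 4.37% by 2 bp. Both borders matched in only 0.169% to 5.65% of pairs. The same-group pairs of libraries gave 69.0% to 79.5%, and pairs from different groups gave 51.8% to 80.6%, so the ranges overlap. The lowest shares were those of a PPARα+ERα library with PPARα library 2.

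**Figure D1:**
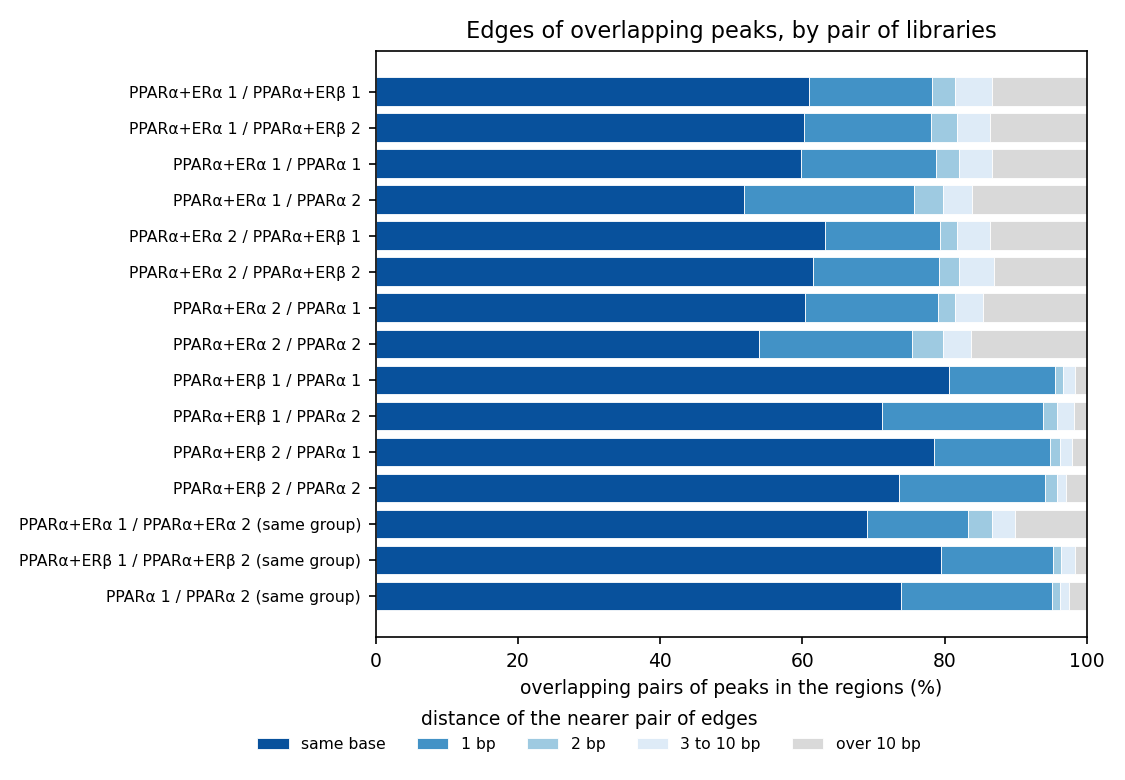
Percent of overlapping pairs of peaks in the 1546 regions, by the distance between the nearer pair of borders (starts or ends), for each of the 15 pairs of libraries, with pairs from the same group at the bottom. The darkest part, borders at the same base, spans 51.8% to 80.6%; pairs that include a PPARα+ERα library have the largest light grey part, borders over 10 bp apart.

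Counted by region, 924 of the 1546 (59.8%, 57.3% to 62.2%) had a start or an end that a peak of every group shared to the base. The shared border was the start in 444 and the end in 482, with both in 2. In 1505 regions (97.3%) at least 2 libraries shared a border, and in 41 no border was shared. In 1265 regions (81.8%) one border was shared and the other was different in every library. Among the 123 regions of all 6 libraries, 36 (29.3%, 22.0% to 37.8%) had a border at the same base in all 6, as a start in 19 and an end in 17. With 1 bp allowed, 76 of the 123 (61.8%) had one border in common to all 6 libraries and none had both.

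The sharing of a border was no feature of these regions alone. In regions found in all 3 groups 67.7% of overlapping pairs shared a border base, against 85.4% of 81602 pairs in the other regions. These pooled shares weigh the pairs of libraries unequally. Pair by pair the medians were 63.2% and 69.1%, and the regions found in all 3 groups had the lower share in 12 of 15 pairs of libraries and the higher in 3. With 1 bp allowed, 72.6% of the 1546 had a border common to every library with a peak, against 94.0% of 14115 other regions with 3 or more libraries. These sets had a median of 4 and 3 peaks, and more libraries make this harder to meet. A border shared by at least 2 libraries went the other way, with 97.3% of the 1546 against 88.6% of 35291 other regions with 2 or more libraries. That measure is easier to meet with more libraries. Number and kind of libraries were not allowed for in either. The shared border lay a median of 127 bp from the summit when it was the start (445 shared starts) and 152 bp when it was the end (482), whereas the free border lay 240 and 228 bp away. The peaks were thus lopsided towards the shared side.

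Whether such borders coincide with a run of a single base could be read only where a border fell in one of the 34961 promoter windows of the sequence table, each of 300 bases, and borders on chromosome 8 were not analysed here. Over all regions of the series, 615 borders fell in a window. A run of 10 or more A within the first 20 bases of a peak, or of 10 or more T within its last 20, was present at 113 (18.4%). Of 51 borders shared by 2 or more libraries, 49 (96.1%, 86.8% to 98.9%) had the run. Of 25 shared by 3 or more, 25 did. Of 564 seen in a single library, 64 (11.3%, 8.99% to 14.2%) had it. The same run in the complementary base, T at a start or A at an end, was found at 0 of the 615. For comparison, 0.149% of all 20-base pieces of the windows held an A or T run of that length.

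**Figure D2:**
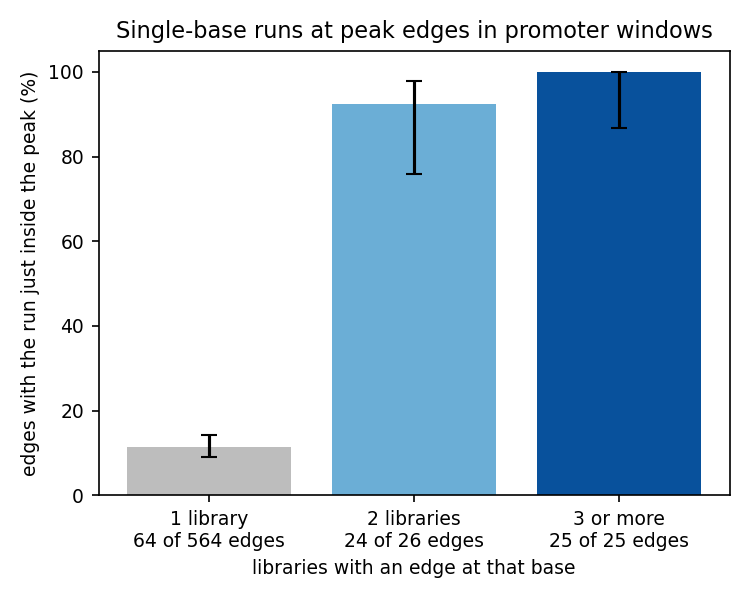
Percent of peak borders in promoter windows with a run of 10 or more A just inside a start or 10 or more T just inside an end, by the number of libraries that have a border at that base, over all merged regions. Bars are shares and error bars are Wilson 95% intervals; the share is 11.3% for borders of 1 library, 92.3% for 2 and 100% for 3 or more.

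Only 4 shared borders of the 1546 regions fell in a window, and 3 of them had the run, those printed above. The exception was DNAJC11, the gene of a mitochondrial J-domain protein, where 2 libraries of different groups shared a start with no run over 2 bases. In each list the run stood at 20.8% to 42.4% of the borders in windows, with the 2 lowest shares, 20.8% and 22.1%, in the PPARα+ERα lists and the highest in PPARα library 1. The part of these runs in calling the peaks was not tested, nor was that of the library kit.

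Turning to strength, the regions found in all 3 groups took up 3.61% and 3.62% of the regions in the PPARα+ERα lists, 6.59% and 5.67% in the PPARα+ERβ lists and 5.33% and 3.02% in the PPARα lists. Of the 1546, 885 and 996 had a peak in the PPARα+ERα libraries, 1151 and 1321 in the PPARα+ERβ libraries, and 1268 and 1096 in the PPARα libraries. Both libraries of the group had a peak in 335 regions (21.7%) for PPARα+ERα, 926 (59.9%) for PPARα+ERβ and 818 (52.9%) for PPARα. The most frequent gap was therefore a missing PPARα+ERα library. Leaving out PPARα+ERα library 1 altogether left 996 regions found in all 3 groups, of which 396 had a peak in each of the other 5 libraries, and leaving out library 2 left 884 and 333. A peak in every library but PPARα+ERα library 1 was the most frequent pattern, with 273 regions, followed by every library but PPARα+ERα library 2, with 210. In all, 317 regions had peaks in 3 libraries, 502 in 4, 604 in 5 and 123 in 6. Beside these, regions with a peak in all 4 libraries of 2 groups and none in the third numbered 95 without PPARα, 10 without PPARα+ERβ, and 5915 without PPARα+ERα.

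Peaks were ranked within each list by the authors' −log10 q. In the PPARα+ERβ lists the peaks of the 1546 regions had median percentiles of 66.7 and 68.1. In the PPARα+ERα lists the medians were 44.4 and 41.1, and in the PPARα lists 50.2 and 36.5. The 123 regions of all 6 libraries stood higher in each list, at 63.5 and 60.1 in PPARα+ERα, 82.4 and 90.1 in PPARα+ERβ and 75.5 and 47.5 in PPARα. In PPARα library 2 their median was thus still below that of the list. Their summits were stacks of a median of 11 and 12 fragments in the PPARα+ERα libraries, 21 and 27 with PPARα+ERβ, and 22 and 23 with PPARα. The lowest stack of the 6 was most often in a PPARα+ERα library, library 1 in 72 regions and library 2 in 40. Fragments here and below are not scaled for depth, which was lowest in these 2 libraries.

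**Figure D3:**
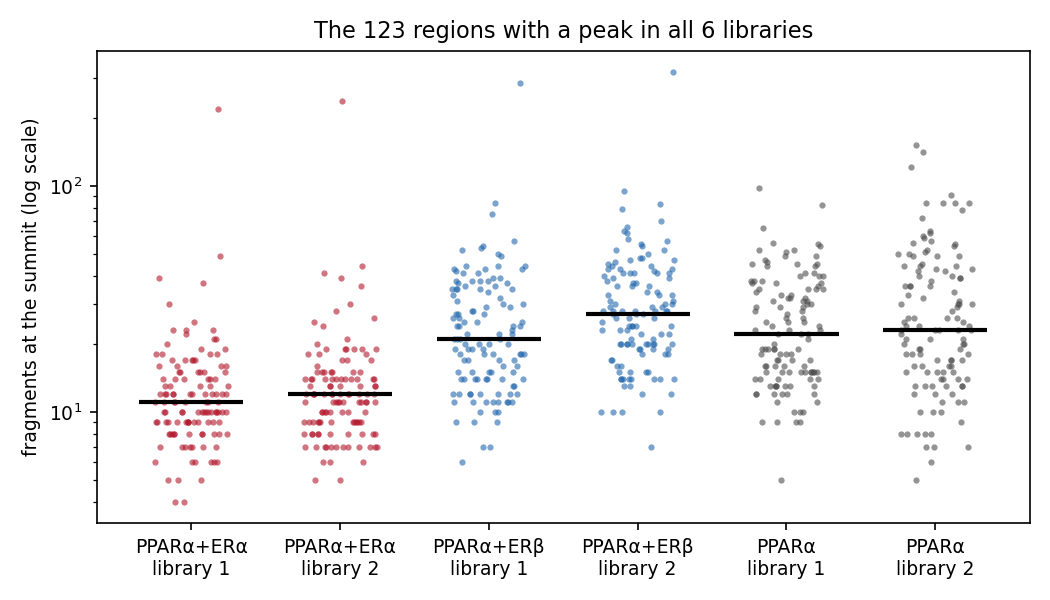
Fragments at the summit (log scale) in each of the 123 regions with a peak in all 6 libraries. Points are regions and black lines are medians, which are 11 and 12 in the PPARα+ERα libraries, 21 and 27 with PPARα+ERβ and 22 and 23 with PPARα; the topmost point in each red and each blue column is the region within the spans of C6orf52 and PAK1IP1.

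The local background of these regions is described here beside that of the other peaks of each list. Peaks in the 1546 regions stood on a median background 2.57 times the genome-wide level in both PPARα+ERα lists, 2.47 and 2.44 times in the PPARα+ERβ lists, and 2.45 and 2.41 times in the PPARα lists. The other peaks of the same lists stood on 1.57 and 1.57 times that level in the PPARα+ERα lists, 9.89 and 8.52 in the PPARα+ERβ lists, and 13.5 and 16.9 in the PPARα lists. The regions therefore lay on a similar background in every list, above that of the other PPARα+ERα peaks and below that of the other PPARα+ERβ and PPARα peaks. They are the same places in every list and were chosen by a called peak in every group. Their common level is thus a description, and the part of the choice of regions in it was not tested. In 65 of the 123 regions of all 6 libraries (52.8%) the 6 backgrounds agreed within 10% of each other. The same multiples recurred in many regions, such as 2.57 in PPARα+ERα library 1 and 2.47 in PPARα+ERβ library 1. The control used is not given in the sources, so this agreement is a description only. A shared region was also wider, with a median of 516 bp for the 123, 443 bp for the 1546 and 356 bp for the other regions, and merging more peaks widens a region.

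**Figure D4:**
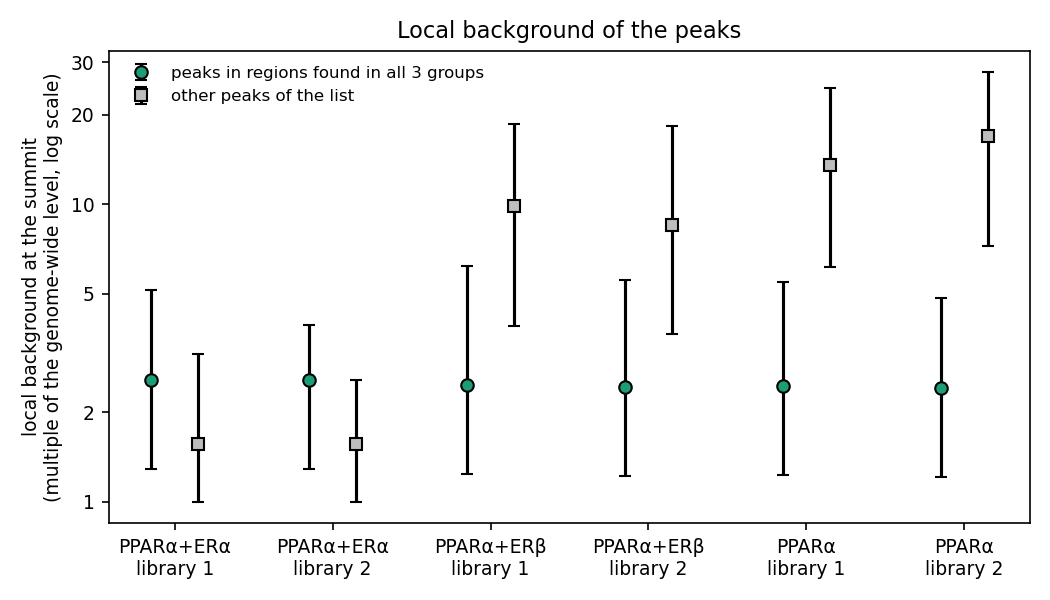
Local background at the summit as a multiple of the genome-wide level of the list (log scale), for peaks in the 1546 regions (green circles) and the other peaks of the list (grey squares). Symbols are medians and bars run between the 25th and 75th percentiles; the circles sit between 2.41 and 2.57 in all 6 lists, and the squares range from 1.57 to 16.9.

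The leading regions of all 6 libraries, ranked by the lowest of their 6 percentiles, lay within a gene span in 13 of 20 cases, against 62.2% of all merged regions, and within 1 kb of a start in 3 of 20, against 2.28%. The width of regions was not allowed for in these shares. First came a region in MAPT, the gene of the microtubule-binding protein tau (chr17:45903716-45904399, 9162 bp from the nearest end of the span). It had 17 and 28 fragments in the PPARα+ERα libraries, 34 and 58 with PPARα+ERβ, and 37 and 91 with PPARα, on a background 1.31 to 1.33 times the genome-wide level. Both PPARα+ERα counts were below the other 4, but by within-list percentile PPARα+ERα library 2 (99.87) stood above PPARα+ERβ library 1 (99.78) and PPARα library 1 (99.61). All 6 peaks started at 45903716 or 45903717. The fold of the MAPT peaks, which is the authors' ratio of summit to background, was 11.9 and 18.6 in the PPARα+ERα libraries, 19.7 and 30.5 with PPARα+ERβ, and 21.4 and 48.7 with PPARα. Such folds can be set against other peaks of the same list but not across lists.

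CASS4, a scaffold protein of the Cas family, held a region (chr20:56431782-56432371) with 18 and 10 fragments in the PPARα+ERα libraries, 43 and 62 with PPARα+ERβ, and 55 and 38 with PPARα. Its 6 summits were at the same base. A region in MAP2K6, a kinase that activates p38 (chr17:69479226-69479735), had 12 and 12 fragments in the PPARα+ERα libraries, 44 and 57 with PPARα+ERβ, and 54 and 44 with PPARα, again with 6 summits at 1 base. PPARα+ERα had the fewest fragments at both. In NRG3, a neuregulin that signals through ERBB4, all 6 peaks started at 82753947 on chromosome 10, and in COBL, an actin nucleator, all 6 ended at 51182300 on chromosome 7. Among the other leading genes with a region inside their span were ARL6IP6, DCBLD1, FOXN2, a forkhead factor, the noncoding RNA gene LINC01428 and the pseudogene TPTE2P5.

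Some regions of all 6 libraries lay at gene ends. At DAZAP2 (chr12:51237786-51238288, 538 bp from the start) the summits held 49 and 44 fragments in the PPARα+ERα libraries, 42 and 52 with PPARα+ERβ, and 41 and 50 with PPARα. The 3 groups overlapped in fragments, whereas the percentiles were 99.8 and 99.4 in the PPARα+ERα lists, 88.6 and 94.8 in the PPARα+ERβ lists, and 83.8 and 73.97 in the PPARα lists. A region inside POLR3K, a subunit of RNA polymerase III, and near SNRNP25, a protein of the minor spliceosome (chr16:52449-53150), ranked lower among the 123 and was named through the gene lists, with 37 and 39 fragments in the PPARα+ERα libraries, 14 and 20 with PPARα+ERβ, and 18 and 15 with PPARα. Both PPARα+ERα counts were above the other 4. Near KCTD13, an adaptor of the cullin 3 ubiquitin ligase (chr16:29923860-29924735), PPARα+ERα had the fewest fragments, 22 and 25, against 75 and 83 with PPARα+ERβ and 65 and 121 with PPARα, and the summits there lay up to 410 bp apart. The peak of PPARα+ERα library 1 ended at 29924314, before those of PPARα+ERβ library 2 and PPARα library 2 began. These counts are therefore not of a single site.

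Among regions found in all 3 groups but not in all 6 libraries, ranked by the best percentile of each group and then by the lowest of these 3, the first was in PPARG, the gene of PPARγ, the relative of PPARα that directs fat cell formation (chr3:12417478-12417918). It had no peak in PPARα+ERα library 1 and 17 fragments in library 2, 17 and 26 with PPARα+ERβ, and 26 and 15 with PPARα. Its background was 1.21 to 1.28 times the genome-wide level. The region lay 16426 bp inside the nearest end of the span and 66061 bp from the nearest PPARG start. Other high ones were in KCNIP4, a modulator of potassium channels, with no peak in PPARα+ERα library 1 and 16 fragments in library 2, 43 and 44 with PPARα+ERβ, and 55 and 88 with PPARα, in NUBPL, an assembly factor of respiratory complex I, and in PDE3A, a phosphodiesterase that cGMP inhibits. In PDE3A the count was 19 fragments in PPARα+ERα library 2 alone of its group, 27 and 28 with PPARα+ERβ, and 26 and 28 with PPARα.

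The rule has a sharp limit, since 1 more or less peak decides. Just inside it, a region in SV2C, a synaptic vesicle protein (chr5:75853616-75854258), had 12 fragments in PPARα+ERα library 2, 20 and 17 with PPARα+ERβ, and 14 in PPARα library 1, at percentiles of 25.6 or less. Just outside it, with all 4 libraries of 2 groups and none of the third, was the region at XPNPEP3 and ST13 (chr22:40856967-40857382), with 117 and 127 fragments in the PPARα+ERα libraries, 170 and 179 with PPARα+ERβ, and no PPARα peak. EIF2S3, a subunit of the translation factor eIF2, had one region on each side of the limit. The region at its start (chrX:24054533-24055004) had 35 and 58 fragments in the PPARα+ERα libraries, 98 and 121 with PPARα+ERβ and no PPARα peak. The region beyond its other end (chrX:24081808-24082423) had 11 and 6 fragments in the PPARα+ERα libraries, 18 and 28 with PPARα+ERβ, and 24 and 24 with PPARα.

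Whether a region found in the other groups is also more often found again in its own group was asked by holding out 1 library at a time. Peaks of the held-out library did not count towards the choice of regions, but the regions themselves had been merged over all 6 lists. Of regions with a peak in the partner library and in both other groups, 33.6% and 37.9% had a peak in the held-out PPARα+ERα library 1 and 2, against 32.1% and 36.1% of partner regions with a peak in neither or 1 of the other groups. With PPARα+ERβ the shares were 70.1% and 80.5%, against 42.2% and 56.9%. With PPARα they were 74.6% in library 1, against 47.7%, and 64.5% in library 2, against 74.5%, where the direction was the opposite. The mean difference over the 3 groups was 11.9 points, higher in 5 of 6 libraries. The 2 libraries of a group share the same regions with a peak in both, so these are not 6 separate results. The PPARα mean of 8.51 points joins 27.0 for library 1 and -9.96 for library 2. An exact two-sided sign-flip permutation test over the 3 group means gave p = 0.25, the smallest that 3 groups allow. The test gives this p whenever the 3 means share a sign, so no difference could pass the usual threshold in this design. Within the partner peaks of the highest −log10 q (the top 25% of the list) the mean was 12.4 points, with the same p by the exact permutation test. With peaks on a local background of at most 3 times the genome-wide level, the share in PPARα library 2 turned to 63.3%, against 57.1%, and the difference was above 0 in all 6 libraries.

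**Figure D5:**
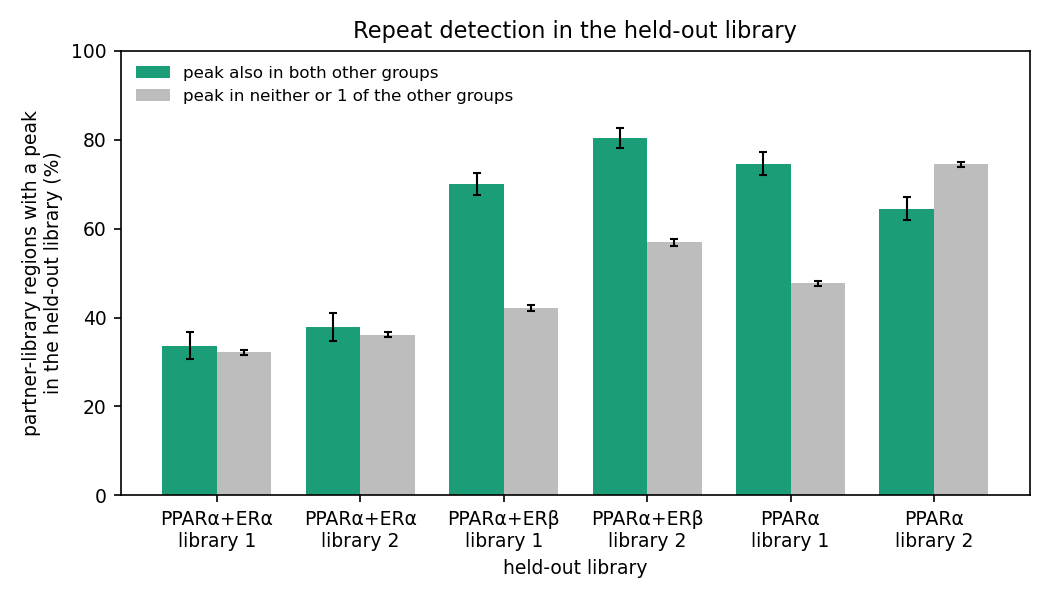
Percent of regions with a peak in the partner library that also had one in the held-out library, for regions with a peak in both other groups (green) and in neither or 1 of them (grey); error bars are Wilson 95% intervals. The green bar is the higher in 5 of 6 libraries, by little for PPARα+ERα (33.6% and 37.9%, against 32.1% and 36.1%), and the lower in PPARα library 2 (64.5%, against 74.5%).

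Summits were compared in the 122 regions with exactly 1 peak in each of the 6 libraries. From the lowest to the highest of the 6 summits the median range was 40 bp, with 40 regions within 10 bp and 20 over 200 bp. Libraries of the same group differed by a mean of medians of 2.50 bp, against 5.12 bp for libraries of different groups. The same-group medians were 4.5 bp for PPARα+ERα, 2 bp for PPARα+ERβ and 1 bp for PPARα. A PPARα+ERα library with a library of another group gave 5 to 10.5 bp, whereas PPARα+ERβ with PPARα libraries gave only 1 to 2 bp. The lowest of all pairings had a mean of 2.17 bp, below that of the labelled groups. Over the 15 ways of pairing the libraries, an exact permutation test (one-sided) gave p = 0.2, where the smallest possible is 0.0667, so the test could not pass the usual threshold and decides nothing here. All 6 summits lay at the same base, among others, in ANKRD12, ZMYM6, LINC01428 and the EIF2S3 region beyond its end. The farthest apart were in a region near CDC27, a subunit of the anaphase-promoting complex, with 670 bp, and near DUSP3, a dual-specificity phosphatase, with 575 bp.

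In position relative to genes, which the rule did not use, the regions were close to the others at gene ends and spans, with higher shares near starts. Of the 1546, 278 (18.0%, 16.1% to 19.97%) were no more than 3 kb from a gene end, against 18.5% of all merged regions, and 25 of the 123 of all 6 libraries (20.3%, 14.2% to 28.3%) did. Near an end of a protein-coding gene lay 9.90% of the 1546 (8.51% to 11.5%) and 17.1% of the 123 (11.4% to 24.7%), against 8.52% of all regions. Inside a gene span lay 63.3% of them, against 62.2%. Over 50 kb from any gene end lay 16.9% of the 1546, against 17.0% of the other regions, and the median distance to an end was 13367 bp, against 13401 bp. Within 1 kb of a RefSeq start lay 48 of the 1458 with a start table for their chromosome (3.29%, 2.49% to 4.34%), against 2.28% of all regions. Among the 123 the share was 9 of 116 (7.76%, 4.14% to 14.1%). A start lay within 8 of the 1458 regions (0.549%, 0.278% to 1.08%), against 0.241% of all regions. Distance was taken from the borders of a region, so a wider region comes nearer to a start or holds one more easily. Median widths were 443 bp for the 1546 and 516 bp for the 123, against 356 bp for the other regions. Width was not allowed for, and its part in the higher shares near starts was not tested. Starts on chromosome 8 were not analysed here. The farthest from any gene end was a region on chromosome 6 (chr6:102850322-102850892), 396256 bp from the pseudogene TARDBPP5, with 8 fragments in PPARα+ERα library 2, 41 and 38 with PPARα+ERβ, and 43 and 67 with PPARα.

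The regions were spread over the genome. Chromosome 8 had the highest share of its regions found in all 3 groups (2.04%, 1.66% to 2.51%) and chromosome 22 the lowest (0.654%, 0.332% to 1.28%). Of the 1162 windows of 1 Mb with such a region, 867 had 1. The most in a window was 6, of 87 regions, on chromosome 20 between 34 and 35 Mb. At the receptors' own genes, PPARA held 8 regions, ESR1 14 and ESR2 1 within their spans, and none of these was found in all 3 groups. Of all merged regions 1.68% were, and so few regions cannot be told from that share.

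Genes of the pathways that PPARα is known for had few of these regions at their ends. Over all 59098 genes of the table, 359 (0.607%) had a region found in all 3 groups within 3 kb of an end, and 177 of 19974 protein-coding genes (0.886%) did. None of 30 fatty acid oxidation genes, 28 lipid handling targets of PPARα, 29 apolipoprotein and plasma protein genes, 25 genes of cholesterol and fatty acid synthesis, 25 estrogen response genes and 45 nuclear receptor genes did. A count of 0 of 30 allows a share of up to 11.4%, so lists of this size cannot be told from the background of all genes. Several of the same lists did have regions near an end in any library, 13 of the 30 fatty acid oxidation genes (43.3%) and 10 of the 28 lipid handling targets (35.7%), against 35.9% of all protein-coding genes.

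The list genes with a region near an end came from other lists. They were NCOA4, the receptor for ferritin turnover and a coactivator (1 of 24 cofactor genes), GTF3A, the 5S RNA gene factor, and POLR3K (2 of 40 genes of RNA polymerases), SF3B2 and SNRNP25 (2 of 46 splicing genes), ATP5F1D, a subunit of ATP synthase (1 of 73 respiratory chain genes), PSMD13 (1 of 35 proteasome genes) and MLXIP (1 of 30 genes of glycolysis and glucose sensing). No cytosolic or mitochondrial ribosomal protein gene (76 and 73) did, nor any of the circadian, cGMP signalling and stress lists or of the marker lists for muscle, neurons and blood. At NCOA4 the summits held 9 and 9 fragments in the PPARα+ERα libraries, 14 and 17 with PPARα+ERβ, and 11 in PPARα library 2 alone of its group. At ATP5F1D (chr19:1246574-1247152) they held 11 and 14 in the PPARα+ERα libraries, 35 and 28 with PPARα+ERβ, and 23 and 18 with PPARα.

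More of the list genes held a region within their span, a reading added after seeing the data. Over all genes 1.71% did, and 3.73% of protein-coding genes. Long genes hold more regions, and length was not allowed for. In lipid metabolism these were HADHA, a subunit of the trifunctional protein of fatty acid oxidation (1 of 30), APOB, the protein of low-density lipoprotein (1 of 29), and ACACA, ACACB and ACLY, which make malonyl-CoA and acetyl-CoA (3 of 25). Among nuclear receptors they were PPARG and NR5A2, a receptor that governs bile acid genes in liver (2 of 45). PDE3A and PDE10A were the 2 of 31 cGMP signalling genes, and HLF the only 1 of 24 circadian genes. The RNA polymerase list had 4 of 40, the splicing list 4 of 46 and the mitochondrial ribosomal list 2 of 73, while 0 of the 28 lipid handling targets of PPARα and 0 of the 25 estrogen response genes had such a region. In HADHA (chr2:26206796-26207335), also near an end of GAREM2, the summits held 8 fragments in PPARα+ERα library 2, 22 and 39 with PPARα+ERβ, and 28 and 50 with PPARα. In ACLY (chr17:41883213-41883597) they held 8 in PPARα+ERα library 2, 14 and 15 with PPARα+ERβ, and 14 and 13 with PPARα, and all 5 peaks ended at the same base. In NR5A2 (chr1:200074742-200075103) they held 9 in PPARα+ERα library 1, 12 in PPARα+ERβ library 1, and 12 and 13 with PPARα, and all 4 peaks started at the same base. The APOB and ACACA regions had peaks in only 3 libraries, and the ACACA region also lay 1681 bp from the start of C17orf78. Local background was 9.74 to 10.3 times the genome-wide level at APOB and 18.3 to 21.8 times at ACACB. Within 3 kb of an end, 10 of the 1911 miRNA genes had a region (0.523%), among them MIR210, which responds to hypoxia, and 4 of 443 tRNA genes did (0.903%), against 0.607% of all genes.

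Promoters could be searched for motifs in 17 windows that 13 of the 1546 regions overlap, those of DNAJC11, E2F2, COMMD1, CCT4, WDR70, C6orf52, PAK1IP1, H4C4, PTER, MLXIP, RPGRIP1, ATP6V0A1, ARFGAP3 and 2 genes with LOC numbers only, some with more than 1 start. The DR1 element, AGGTCA and a second AGGTCA with any 1 base between, was in 0 of 17, and in 0.0229% of all windows. Its hexamer AGGTCA, which also lies within the DR1, was in 5 of 17 (29.4%), against 13.8% of all windows, at ATP6V0A1, C6orf52, PAK1IP1 and PTER. The windows of C6orf52, which has more than 1, and PAK1IP1 overlap one another in a single region. The 5 are therefore not separate promoters, and the share counts that place more than once. The estrogen response element, GGTCA and TGACC with any 3 bases between, was in 0 of 17, and in 0.0572% of all windows. The ETS hexamer CCGGAA was in 5 of 17 (29.4%), against 17.3%, again with the overlapping windows of C6orf52 and PAK1IP1 among them. The GC box GGGCGG was in 8 (47.1%), against 45.0%. All were sought as exact matches on both strands, and windows at neighbouring starts share sequence. A match or its lack says only whether these letters are in the window. Sequence outside promoter windows, where most of the 1546 regions lie, was not used here.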

How the data were processed

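Each of 6 ChIP libraries (2 in each of 3 groups) had a narrowPeak list. Per the submitters' processing notes, tools included MACS2 2.2.7.1, Bowtie 1.0.1, Trim Galore 0.6.4, DiffBind 2.16, ChIPseeker 1.18.0 and HOMER 4.11, and builds hg38 and GRCh38.p13; roles and the control used are not given in the sources used here. The authors' fold is a ratio of summit to local background, and their −log10 p, −log10 q and score (from −log10 q) belong to the summit; these were used within a list only. Positions were turned to count from 1.

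Scripts ran under Python 3.11.15 with SciPy 1.17.1, NumPy 2.4.6, Matplotlib 3.10.9 and pandas 2.3.3. Fragments and local background at each summit were solved for from the deposited −log10 p and fold, with p as a Poisson tail; 100% of peaks returned a whole fragment number within 0.001 in −log10 p. The steps were tested on simulated data. Overlapping peaks were merged (1 bp or more), and each library was held out in turn.

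The named regions are the highest ranked (of all 6 libraries, by their lowest within-list percentile; otherwise by the lowest of the 3 groups' best percentiles), those with the closest and farthest summits, the farthest from genes, those just inside and outside the rule, and list genes. Regions and the 20 gene lists (714 genes, all matched) were chosen with earlier results of these data known. E2F2, PAK1IP1, DNAJC11, MIR210, the borders and the base runs were chosen after values were seen. Alternatives were a larger overlap, nearby summits, a base covered by every group, stricter q, equal list length, low background, both libraries per group, other distances, and leaving out each library. Not every region that the rule names is printed.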

Additional observations from a re-analysis of the deposited data

How the results depend on the processing

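Regions found in all 3 groups numbered 574 with lists of equal length (38 in all 6 libraries), 901 with peaks on a local background of at most 3 times the genome-wide level (78 in all 6) and 123 when both libraries of each group were required. Leaving out 1 library gave 884 to 1321 regions, and 135 to 396 with a peak in all remaining libraries. The 2 PPARα+ERα libraries moved these counts by over 1.5 times (996 and 396 without library 1, 884 and 333 without library 2). The count stayed within 1.5 times with a 100 bp overlap, summits within 200 bp, a base covered by every group, or −log10 q of 3 or more.

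The share near a gene end was 20.3% when both libraries were required, 8.21% within 1 kb (7.68% of all regions), 43.3% within 10 kb (42.5%), and 9.90% for protein-coding genes (8.52%), and 16.4% to 18.3% when 1 library was left out.

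The share of regions with a border shared by all 3 groups, a measure added after seeing the data, was 59.8%, against 64.6% at the stricter q, 63.8% at equal length, 62.7% at low background, and 50.9% to 58.9% without 1 library. The mean difference in repeat detection ranged from 11.9 to 17.4 points, and the summit difference kept its direction, under each alternative run. The cause of these shifts was not tested. No paired analysis was possible because the replicate numbers follow the order of deposit only. The PPARα+ERα libraries were the shallowest, and the part of depth in the counts was not tested.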

Other observations

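Beyond chromosomes 1 to 22 and X, 188 merged regions lay on other sequences, of which 3 had a peak in every group and 0 had one in all 6 libraries. Repeat detection split by library more than by group for PPARα. With lists of equal length the held-out PPARα library 1 had 87.7% of partner regions that were also found in both other groups, against 55.5% of the rest, and library 2 had 37.98%, against 56.5%.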
